A study of Mus musculus with 2 samples.

Results

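The genes described here are 10 mouse genes of the oxidative stress response that the transcription factor NRF2 directs. They were taken by name from the array annotation, and they were measured by 12 probes among the 39429 probes and 29924 gene names of the array. Their expression was compared between cultured newborn ureters with and without a block of SHH signaling. Ureters of wildtype NMRI mice were explanted at postnatal day 0 and kept for 18 h in culture with 10 µM cyclopamine, a plant alkaloid that inhibits the SHH signal transducer SMO, or with solvent alone. The labels give the solvent as DMF at 1 to 1000, while the methods of the study name ethanol for cyclopamine. RNA of pools of ureters was hybridised to 2 two-colour Agilent arrays, and each array set treated against untreated ureters of 1 sex. Replicate 1 held female pools with cyclopamine in the red channel, and replicate 2 held male pools with the dyes swapped. Sex, dye orientation and replicate therefore cannot be told apart. One label of the treated channel names IWP-2, an inhibitor of WNT secretion. The titles, the treatment entries and the protocol name cyclopamine, as is done here.

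NRF2, encoded by Nfe2l2, is a transcription factor that is made continuously and destroyed continuously. Its adaptor for ubiquitination, KEAP1, carries reactive cysteines, and when oxidants or electrophilic compounds modify them, NRF2 escapes degradation, enters the nucleus and binds, together with small MAF proteins, to antioxidant response elements near its target genes. The targets supply glutathione, thioredoxin and NADPH, and break down heme. NRF2 is thus regulated mainly at the level of the protein, which an expression array does not measure.

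The core of the antioxidant response element, TGACNNNGC, was found near 5 of the members, in the window from 250 bases before to 50 bases after an annotated start. Such windows were at hand for 7 members (Nfe2l2, Keap1, Slc7a11, Gclm, Txnrd1, Srxn1 and G6pdx, with 9 windows in all) in RefSeq, build GRCm38.p6. The core was searched on both strands, and 12.4% of all 32851 windows held it. A match therefore describes the letters only, and binding was not measured. No window was at hand for Gclc, Gsr and Hmox1. The stretches therefore cannot set the members that changed most beside those that changed least, and they are shown for their letters only. Each is printed 5′ to 3′ on the strand that reads the core, with the core in capitals and 10 bases on either side.
Nfe2l2 (chr2:75704885-75704913): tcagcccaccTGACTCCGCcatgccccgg
Gclm (chr3:122245413-122245441): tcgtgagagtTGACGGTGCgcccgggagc
Txnrd1 (chr10:82859104-82859132): cgtgtcagaaTGACAAAGCaaaaatccag
Srxn1 (chr2:152105542-152105570): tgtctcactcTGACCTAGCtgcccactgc
G6pdx (chrX:74428919-74428947): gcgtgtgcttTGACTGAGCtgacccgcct
The Nfe2l2 core reads on the strand of the gene and the other 4 on the opposite strand. On the gene strand the first base of the core lies at position -240 relative to the start in Nfe2l2, at -134 in Gclm, at -92 in Txnrd1 (1 of 3 windows of that gene), at -57 in G6pdx and at 29 in Srxn1. The windows of Slc7a11 and Keap1 did not hold the core. That of Slc7a11 held TGATGCAA, an amino acid response element of the kind that ATF4 binds, once on each strand (both capitalised below), from 66 to 40 bases before the start. At least 1 such match was found in 0.895% of all windows.
Slc7a11 (chr3:50443653-50443679): TGATGCAAacctggagaatTTGCATCA

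Among the 10 genes, 7 had a higher signal with cyclopamine on both arrays, 1 had a lower signal on both, and 2 lay on opposite sides. Over all 19346 genes tested, 28.6% were higher on both arrays, 29.1% were lower on both and 42.4% lay on opposite sides. Slc7a11, the light chain of the cystine importer, was the member that rose past the statistical threshold, 1.79-fold on average. Gclc, Txnrd1 and Nfe2l2 followed with mean folds of 1.59, 1.53 and 1.40 that did not pass it. The members' median of the mean log2 ratio was 0.29 (0.43 on replicate 1 and 0.17 on replicate 2), and that of all genes tested was -0.01. All 12 probes were well above background in every spot of all 4 channels, so no member was lost to a filter on dim probes. The ratios of the 4 spots of a probe had an SD between 0.00394 and 0.0583 on the log2 scale, which is technical error of a single hybridisation. The 2 arrays, not the spots, are the replicates, and their number limits the precision. A test that only turns the signs of 2 arrays cannot give an exact p below 0.5, so the limma test across all probes was used.

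**Figure D1:**
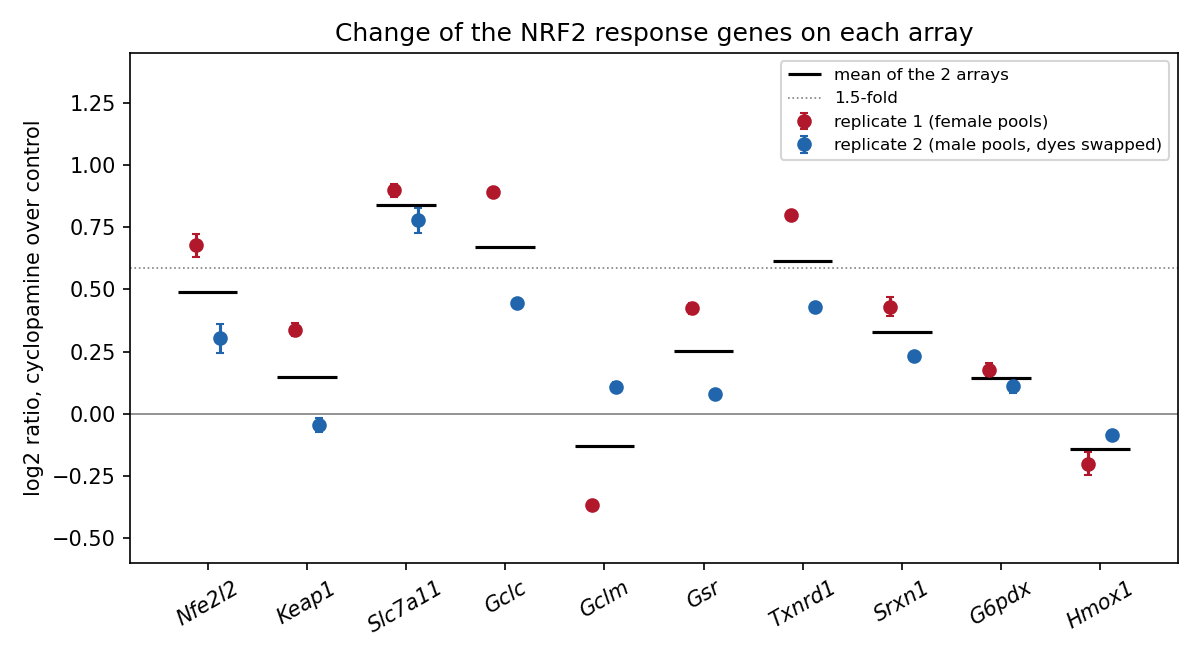
The y axis gives the log2 ratio of cyclopamine over control for each gene on the x axis, as red points for replicate 1 and blue points for replicate 2, with the SD over 4 spots as bars, the mean of both arrays as a black line and a dotted line at 1.5-fold. Slc7a11 is the only gene whose points both lie above the 1.5-fold line (0.90 and 0.78), and Keap1 and Gclm have points on both sides of 0.

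The regulators were read first. The probe of Nfe2l2 (chromosome 2, 75513771 to 75513830, build mm9 as in the array annotation) gave 27034 intensity units with solvent and 43207 with cyclopamine on replicate 1. On replicate 2 the intensities were 7833 and 9669. Cyclopamine was thus the brighter channel on both arrays, in both dyes. The log2 ratios were 0.68 and 0.30, with a mean of 0.49 ± 0.26 (SD, n = 2) and a limma adjusted p of 0.473. Nfe2l2 lay above 96.5% of the genes tested by its mean ratio. Keap1 (chromosome 9, 21035292 to 21035732), which encodes the adaptor that marks NRF2 for degradation, had intensities of 4881 and 6171 on replicate 1 and of 1314 and 1274 on replicate 2. Its ratios of 0.34 and -0.04 lay on opposite sides of 0. The mean was 0.15 ± 0.27 (SD, n = 2), smaller than the spread between the arrays, with an adjusted p of 0.878. The ratio of Nfe2l2 exceeded that of Keap1 by 0.34 on replicate 1 and 0.35 on replicate 2.

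Glutathione synthesis begins with cystine import, and the member called by limma acts at this step. Slc7a11 (chromosome 3, 50169700 to 50169759) gave intensities of 509 with solvent and 949 with cyclopamine on replicate 1. On replicate 2 it had 97.6 and 167. The log2 ratios of 0.90 and 0.78 differed by 0.12, and the mean was 0.84 ± 0.08 (SD, n = 2; SE of the fit 0.23; limma adjusted p 0.0434). The 95% interval of the mean by limma ran from 0.38 to 1.29. By its mean ratio the gene ranked 93 among 19346 genes tested. In bulk RNA of a whole ureter, more cells that express a gene and more RNA per cell cannot be told apart, for this and every gene below. By limma 1 of the 10 members was called higher and none lower, beside 0.439% of all genes called higher and 0.868% lower. The call was close to the threshold and held under 5 of 9 alternatives (limma adjusted p from 0.0158 to 0.992). Of these 5, naming through the accession reused the main fit and the same probe, so it could not lose the call. With a background offset of 10 the call held narrowly (limma adjusted p 0.0499). It was lost, for example, with a background offset of 50 (adjusted p 0.169) and without the filter on dim probes (adjusted p 0.0721). The ratio ranged from 0.73 to 0.85 with background offsets of 50 and 10, the series table values and the length trend removed. The other alternatives leave the ratio of this gene, which has 1 probe, as it was.

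Glutamate cysteine ligase, the rate-limiting enzyme of glutathione synthesis, has a catalytic subunit, GCLC, and a modifier subunit, GCLM. The gene of the catalytic subunit, Gclc (chromosome 9, 77641296 to 77641355), had intensities of 10112 and 18770 on replicate 1 and of 3719 and 5071 on replicate 2. Its log2 ratios of 0.89 and 0.45 gave a mean of 0.67 ± 0.31 (SD, n = 2; limma adjusted p 0.184). The gene of the modifier subunit, Gclm (chromosome 3, 121962174 to 121964809), had intensities of 4420 and 3425 on replicate 1 and of 657 and 708 on replicate 2. Cyclopamine was the dimmer channel on the first array and the brighter on the second, with ratios of -0.37 and 0.11 and a mean of -0.13 ± 0.34 (SD, n = 2; limma adjusted p 0.896). The partner subunits thus differed in their ratios by 1.26 on replicate 1 and by 0.34 on replicate 2, with Gclc the higher on both, a mean difference of 0.80 ± 0.65 (SD, n = 2) that was not tested further. Gsr, which encodes the reductase that regenerates glutathione from its oxidised form, had intensities of 16658 and 22338 on replicate 1 and of 4957 and 5246 on replicate 2. Its brighter probe (chromosome 8, 34808488 to 34808547) gave ratios of 0.42 and 0.08, and a neighbouring probe (34808413 to 34808472) gave 0.36 and 0.24. The mean of the brighter probe was 0.25 ± 0.24 (SD, n = 2; limma adjusted p 0.764).

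**Figure D2:**
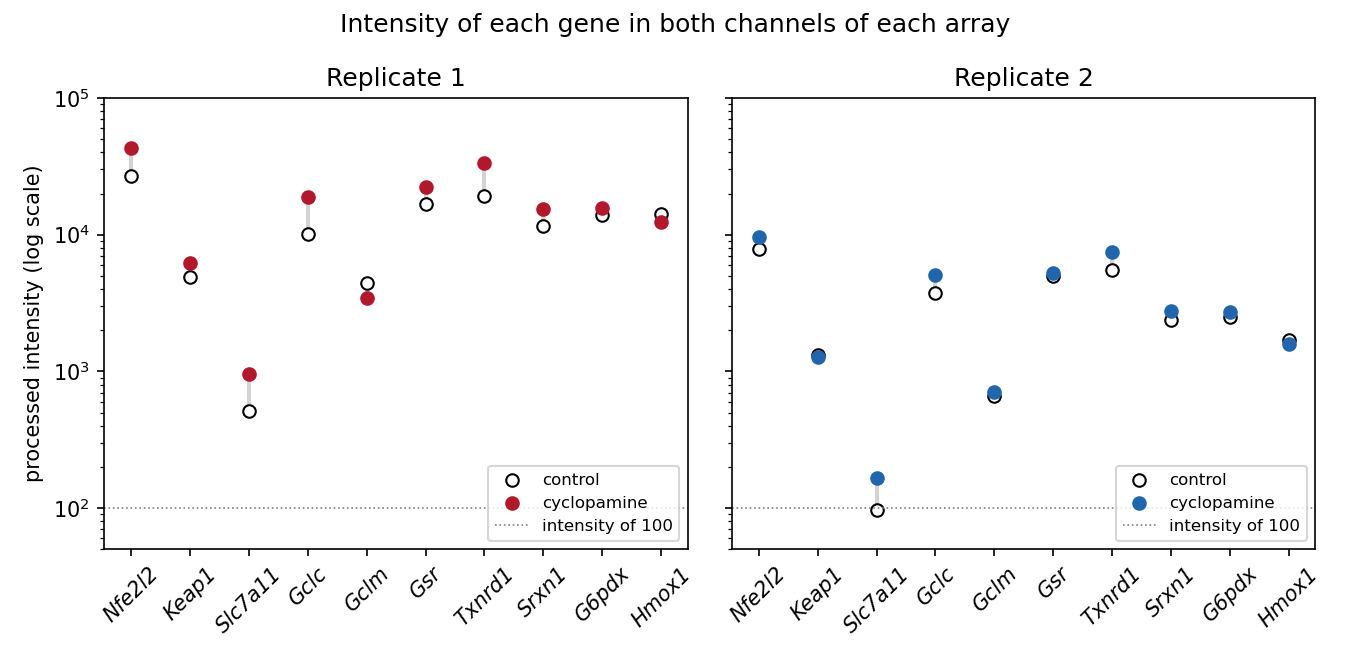
The y axes give the processed intensity on a log scale for each gene on the x axis, in the control channel (open points) and the cyclopamine channel (filled points) of replicate 1 (left) and replicate 2 (right), joined by grey lines. Slc7a11 is the dimmest member on both arrays, and its control signal of 97.6 on replicate 2 lies just under the dotted line at 100; intensities are not comparable between probes or arrays.

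In the thioredoxin arm the ratio of the reductase exceeded that of the repair enzyme by 0.37 on replicate 1 and by 0.20 on replicate 2. Txnrd1 (chromosome 10, 82360230 to 82360289), which encodes the cytosolic thioredoxin reductase, had intensities of 19102 and 33208 on replicate 1 and of 5556 and 7471 on replicate 2. The log2 ratios were 0.80 and 0.43, with a mean of 0.61 ± 0.26 (SD, n = 2; limma adjusted p 0.255). Srxn1 (chromosome 2, 151937009 to 151937068) encodes sulfiredoxin, which restores peroxiredoxins that peroxide has overoxidised. It had intensities of 11527 and 15533 on replicate 1 and of 2364 and 2773 on replicate 2, ratios of 0.43 and 0.23, and a mean of 0.33 ± 0.14 (SD, n = 2; limma adjusted p 0.681). Both genes were brighter with cyclopamine on either array.

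NADPH feeds both reductases. G6pdx (chromosome X, 71654949 to 71655008) encodes glucose-6-phosphate dehydrogenase, the entry enzyme of the pentose phosphate pathway that makes NADPH. Its intensities were 13821 and 15617 on replicate 1 and 2506 and 2711 on replicate 2. The ratios were 0.18 and 0.11, and their mean of 0.14 ± 0.04 (SD, n = 2; limma adjusted p 0.879) was the smallest among the 7 members higher on both arrays. Of the later enzymes of the pathway, named after their values were seen, Pgd had ratios of 0.41 and 0.16, Tkt of 0.54 and 0.10 and Taldo1 of -0.04 and 0.12, and none was called by limma.

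Hmox1 was the single member lower with cyclopamine on both arrays. It encodes heme oxygenase 1, which opens the heme ring, and is a widely used readout of oxidative stress. The brighter probe (chromosome 8, 77624207 to 77624266) had intensities of 14153 and 12318 on replicate 1 and of 1692 and 1594 on replicate 2. Its log2 ratios of -0.20 and -0.09 gave a mean of -0.14 ± 0.08 (SD, n = 2; limma adjusted p 0.881). The dimmer probe (77620797 to 77620856) gave -0.18 and -0.05. The 95% interval of the mean, from -0.60 to 0.31, leaves room for small changes in either direction. Macrophages and erythroid cells are rich in heme metabolism, so their markers were read beside Hmox1. Of 8 macrophage markers, 1 was higher on both arrays, 4 were lower on both and 3 were on opposite sides, and of 5 erythroid markers the 3 that were tested were lower on both. The summed macrophage intensity was 29528 in control and 29935 with cyclopamine on replicate 1, and 5081 and 4562 on replicate 2. The summed erythroid intensity was 62051 and 46011 on replicate 1, and 6079 and 5532 on replicate 2. The part of these cells in the Hmox1 values was not tested.

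By the limits used in the study (control signal over 100 and a change of 1.5-fold, applied here on both arrays in the same direction) no member was counted, against 0.213% of genes higher and 0.638% lower among 13644 genes bright enough. On replicate 1, 4 members passed 1.5-fold (Slc7a11, Gclc, Txnrd1 and Nfe2l2), and Slc7a11 was the one that did so on replicate 2. Slc7a11 missed the count through its control signal of 97.6 on replicate 2. The arrays were not on a common scale, since the 75th percentile of control intensities was 3338 on replicate 1 and 628 on replicate 2. After both arrays were brought to a common 75th percentile, the control signals of Slc7a11 were 221 and 225 and the gene was counted.

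The 10 genes kept nearly the same order on both arrays (Spearman's rho 0.87 and Pearson's r 0.78 over 10 genes, which share the 2 hybridisations and are not independent). Over all 25975 probes tested the Pearson correlation between the arrays was 0.24. All 10 members had a larger absolute ratio on replicate 1 than on replicate 2, and over all probes the SD of the ratios was 0.46 on replicate 1 and 0.30 on replicate 2. Slc7a11 changed least between the arrays among the 4 members with the highest means, and Gclm most among all 10, by 0.48.

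**Figure D3:**
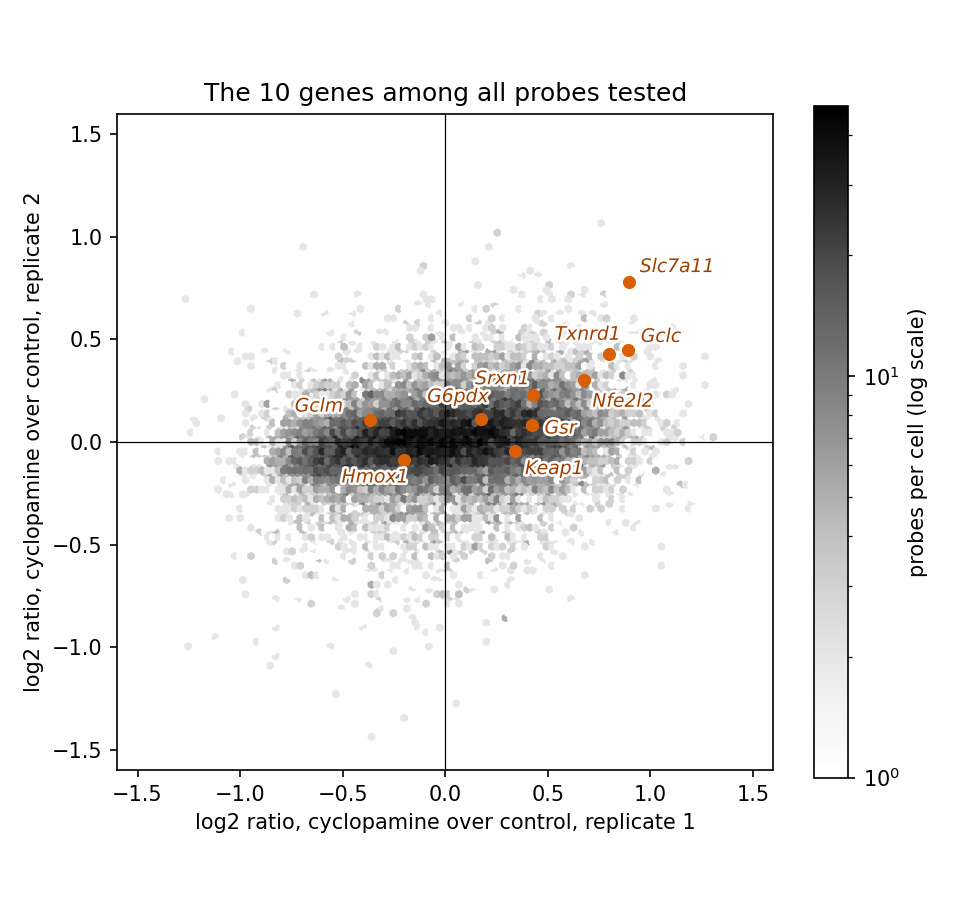
Each axis gives the log2 ratio of cyclopamine over control on an array (x, replicate 1; y, replicate 2); the grey scale counts the 25975 probes tested per hexagon on a log scale, probes beyond 1.6 are outside the frame, and the 10 members are orange. Slc7a11, Gclc, Txnrd1 and Nfe2l2 lie to the upper right, Hmox1 to the lower left of 0, and Keap1 and Gclm in the other quadrants.

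The ratios moved with the length of the gene on replicate 1. Over 22468 probes with a known gene length Spearman's rho between ratio and length was 0.44 on replicate 1 and 0.03 on replicate 2. The members span from 5.85 kb (Srxn1) and 6.98 kb (Hmox1) to 63.8 kb (Txnrd1) and 134 kb (Slc7a11), with a median of 25.4 kb against 21.4 kb over the genes tested with a known length. Within the 10 members rho with length was 0.65 on replicate 1 and 0.64 on replicate 2, a description of 10 genes only. When the trend was removed from each array, Slc7a11 had ratios of 0.66 and 0.81, and remained called (mean 0.73; limma adjusted p 0.0262). Srxn1, the shortest member, moved up to 0.66 and 0.25, with a mean of 0.46 in place of 0.33. Gclc had 0.79 and 0.42, Txnrd1 0.63 and 0.41, and Nfe2l2 0.63 and 0.28. Hmox1 moved to 0.01 and -0.07 and was then no longer lower on both arrays. With and without the trend, 7 members were higher on both arrays, and the median of the members was 0.35 without it, beside 0.03 over all probes.

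**Figure D4:**
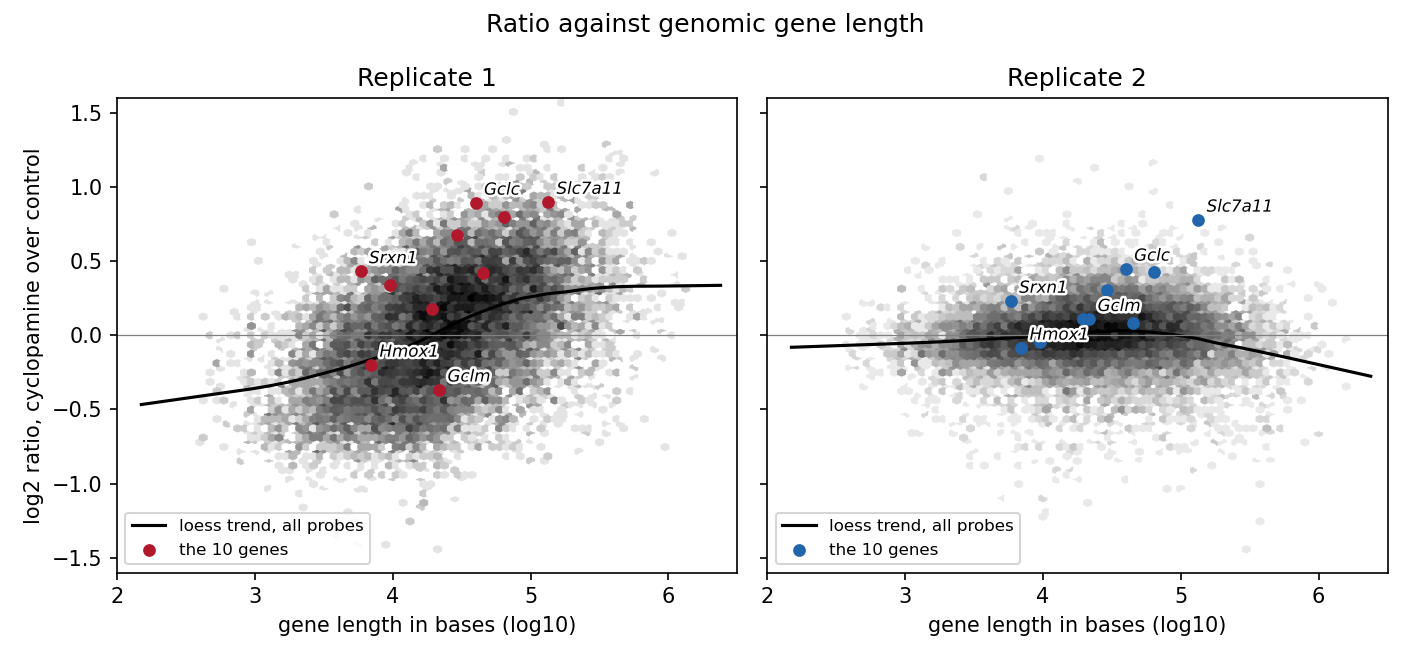
The y axes give the log2 ratio of cyclopamine over control and the x axes the log10 of the genomic length of the gene in bases, for replicate 1 (left) and replicate 2 (right); grey hexagons are the probes tested, the black line is their loess trend, and coloured points are the 10 members. On replicate 1 the trend climbs with length and 9 of the 10 points lie above or close to it, with Gclm below; on replicate 2 the trend is nearly flat and Slc7a11 stands highest at 0.78.

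The other genes of the pathway had medians closer to 0 than the 10 members. Members and lists were chosen with earlier results of these data known, so this contrast only describes the lists as chosen. Of 26 further NRF2 target genes, 11 were higher on both arrays, 2 were lower on both and 13 lay on opposite sides. Their median log2 ratio was 0.11 (-0.00053 on replicate 1 and 0.12 on replicate 2). A single gene of this list was called by limma, Aox1, which encodes an aldehyde oxidase. Its intensities were 1159 and 2337 on replicate 1 and 256 and 473 on replicate 2, its ratios 1.01 and 0.88 and its mean 0.95 ± 0.09 (SD, n = 2; limma adjusted p 0.0146). This call was lost with a background offset of 50 (adjusted p 0.0613), with the series table values (0.511) and with the 4 channels taken separately (0.992). Aox1 and Nqo1 also passed the limits of the study. Nqo1, the quinone reductase that is the classic NRF2 reporter gene, had intensities of 4738 and 7193 on replicate 1 and of 784 and 1292 on replicate 2. Its ratios were 0.60 and 0.72 and its mean 0.66 ± 0.08 (SD, n = 2; limma adjusted p 0.188, and 0.0344 with the length trend removed). The lowest of this list was Blvrb, a biliverdin reductase, with ratios of -0.56 and -0.02. Among 9 regulators and partners of NRF2, 5 were higher on both arrays and 2 lower on both, with a median of 0.12 and no call. Their highest mean was 0.34 for Nfe2l1, a relative of NRF2 (0.63 on replicate 1 and 0.05 on replicate 2), and their lowest -0.25 for Rbx1, a subunit of the ubiquitin ligase that KEAP1 recruits. Bach1, the repressor that competes with NRF2 at Hmox1 and other targets, had ratios of 0.14 and 0.10.

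Of 10 other antioxidant enzymes, 1 was higher on both arrays, 3 were lower on both and 6 lay on opposite sides, and none was called. Whether NRF2 acts on these enzymes was not tested. The arrays differed, with a median of -0.17 on replicate 1 and of 0.04 on replicate 2. The mean ratios ran from -0.17 for Prdx5, a peroxiredoxin (-0.28 and -0.06), to 0.09 for Cat, catalase (0.14 and 0.04). Since Slc7a11 is also a target of ATF4, the factor of the amino acid and ER stress response, 8 genes of that response were read beside it. Of these, 3 were higher on both arrays, 2 were lower on both, and none was called, with a median of -0.05 (0.03 on replicate 1 and -0.01 on replicate 2). The lowest mean was that of Ddit3, with ratios of -0.70 and 0.01, and the highest that of Ddit4, with 0.04 and 0.39, so that each rested on 1 array.

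Nqo1 is also a target of the aryl hydrocarbon receptor (AHR). The other AHR targets, a list chosen after their values had been seen, were all higher on both arrays, and the list of 5 that includes Nqo1 had a median of 0.70. Cyp1a1, a cytochrome P450 and its most inducible gene, had intensities of 25.0 and 483 on replicate 1 and of 6.42 and 141 on replicate 2. Its mean ratio of 4.37 ± 0.13 (SD, n = 2; limma adjusted p 1.10e-21) was the highest of all genes tested. The control signal was dim, with 75% of spots well above background on replicate 2, and the ratio was 2.61 with a background offset of 50 and 3.30 with one of 10. Ahrr, the AHR repressor, averaged 0.89 ± 0.35 (SD, n = 2; limma adjusted p 0.0285, and 0.102 with a background offset of 50). Tiparp, a further target, passed the limits of the study with ratios of 0.79 and 0.60. The part of AHR in the values of the NRF2 targets was not tested. The SHH targets that report the block itself fell, Gli1 with ratios of -1.83 and -2.09 and Ptch1 with -1.13 and -1.49. The brightest probe of Hhip had ratios of -0.31 and -1.99, so its mean of -1.15 rested mainly on replicate 2. Its call (limma adjusted p 0.00683) was lost with a background offset of 50 (adjusted p 0.159). Over all tested probes of Hhip the mean was -1.40 (limma adjusted p 1.36e-06).

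**Figure D5:**
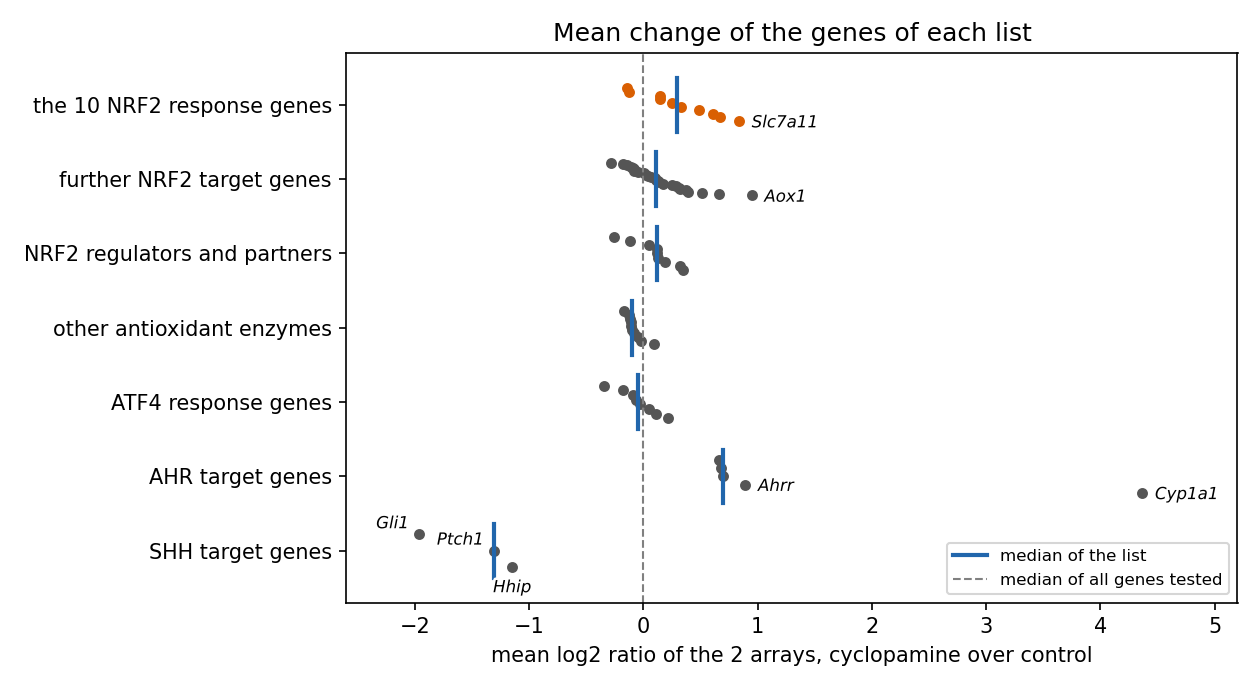
The x axis gives the mean log2 ratio of cyclopamine over control over the 2 arrays, and each row a gene list with a point per gene tested, its median as a blue line, and the median of all genes tested as a dashed line; genes called by limma are named. The 10 members have a median of 0.29, between the 0.11 of further NRF2 targets and the 0.70 of AHR targets, in lists chosen with earlier results known.

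Markers of the labelled tissue were present. All 6 urothelium and all 6 smooth muscle markers were tested, whereas of 4 kidney tubule markers Lrp2 alone was, with ratios of 1.23 and 0.28. The control signals of Lrp2 were dim, 60.6 on replicate 1 and 35.6 on replicate 2. Its mean ratio of 0.75 was 0.47 with a background offset of 50. Urothelium markers had a median log2 ratio of 0.21, from -0.02 (Upk2) to 0.47 (the brightest probe of Trp63, whose mean over all tested probes was 0.069). Smooth muscle markers had a median of -0.12 on replicate 1 and of -0.55 on replicate 2. The lowest was Cnn1, with ratios of -0.26 and -0.84, and the highest mean was that of Smtn, with 0.31 and -0.31. Mean ratios of macrophage markers ran from -0.27 (C1qb, -0.41 and -0.13) to 0.20 (Adgre1, 0.21 and 0.19). Those of erythroid markers ran from -0.35 (Hbb-b1, -0.65 and -0.06) to -0.15 (Alas2, -0.01 and -0.29). No marker of these lists was called by limma, and the part of a shift between cell types in the members' values was not tested.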

How the data were processed

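The authors deposited an intensity per spot and channel from Agilent Feature Extraction, version 12.2.0.7 by the headers and 10.7.3.1 by the submitters' processing notes, after subtraction of background and balancing of the dyes. The log10 ratio that the authors deposited is of red to green, and it was used only to check the direction. The series table of the authors holds a rounded score per probe. Its values match a linear fold with a sign, turned to cyclopamine over control (median 1.0 on both arrays), and it was an alternative.

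Control spots and spots flagged as outliers (2.89% and 3.15%) were removed, and none was saturated. Spots of a probe were averaged on the log2 scale, with all ratios as cyclopamine over control. The brightest probe stands for a gene. Tested probes had a share of 0.5 or more of their spots well above background on both arrays, in either condition. limma 3.58.1 in R 4.3.3 fitted 25975 probes with the dye orientation as +1 and -1, Benjamini-Hochberg adjustment and a limit of 0.05, and was tested on simulated data. With 1 residual degree of freedom the estimate of the spread comes mainly from the prior shared by all probes. The p-values therefore set each mean ratio against a spread between 2 pairs of pools that is mostly shared over all probes. The 2 pairs also differ in sex and dye orientation. Both arrays came from the same slide and scan. Positions of probes come from the array annotation (mm9), without exon or UTR. The probes have 60 bases, and those of Keap1 and Gclm span 441 and 2636 bases of the genome, so they cross a splice junction. Gene lengths and promoter windows are from RefSeq.

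The members and lists were chosen with earlier results of these data known. Named were all members, Nqo1, Bach1, Cyp1a1, Gli1 and Ptch1, and of every list the genes called or past the limits of the study and those with the highest and lowest mean. Pgd, Tkt and Taldo1 were named outside this rule, after their values were seen.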

Additional observations from a re-analysis of the deposited data

Results flagged for a closer look

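Keap1 and Gclm lay on opposite sides of 0 on the 2 arrays, each ratio by more than 2 standard errors of its 4 spots. Keap1 had a log2 ratio of 0.34 on replicate 1 (female pools) and of -0.045 on replicate 2 (male pools). Gclm had -0.37 on replicate 1 and 0.11 on replicate 2. The difference between the arrays was not tested, since each sex has a single array and sex cannot be told apart from the dye orientation. Over all genes tested 42.4% lay on opposite sides.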

How the results depend on the processing

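The direction of the mean ratio was the same under all 9 alternatives with both arrays for each of the 10 members. Not every alternative could change it. The ratios moved only with normexp offsets of 50 and 10, the series table values and the length trend removed. Those of Gsr and Hmox1 also moved with the mean over all probes. Among the members the call of Slc7a11 changed. The count of members called was 1, and it was 0 with normexp at an offset of 50, with the series table values, with no filter on dim probes, and with the 4 channels as separate columns, that is with no replicate block (Slc7a11 adjusted p 0.169, 0.511, 0.0721 and 0.992). The series table is rounded, and the cause of the other losses was not tested. The count of members past the limits of the study was 0, and it was 1 with a control limit of 50 or a common 75th percentile, 2 with the mean ratio in place of each array, and 0 to 4 when either array was left out. Without replicate 1 or 2 the median of the members was 0.17 to 0.43.

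Over all probes limma called 118 higher and 200 lower. Normexp with an offset of 50 gave 12 and 42, an offset of 10 gave 55 and 125, and the series table and the 4 channels with no replicate block gave 0 and 0 (1051 and 818, and 274 and 291, at an unadjusted p under 0.05). Removing the length trend gave 255 higher and no dim filter gave 216 higher. The marker genes Upk2 and Smtn, both near 0, changed sign, Upk2 to 0.021, 0.0015 and 0.18 with offsets of 50 and 10 and without the length trend, and Smtn to -0.027 with the mean over all probes. Of the other genes, Aox1, Ahrr and Hhip lost their calls at an offset of 50 (adjusted p 0.0613, 0.102 and 0.159), and Nqo1 was called without the length trend (0.0344). No gene named here was called with the series table or with the 4 channels taken separately. No dye-swapped repeat of the same pools was at hand, so a dye effect on a member cannot be separated from its spread.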
